A study of Ambystoma mexicanum with 17 samples.

Results

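C1QA, C1QB, C1QC and CSF1R, 4 genes that mark macrophages, were followed through 17 libraries of axolotl forelimb tissue. The genes were chosen by their symbols among 122775 gene IDs, with earlier results of these data known. All 4 were among the 19398 genes with enough reads to be tested. The tissue came from white (d/d) axolotls (Ambystoma mexicanum), and polyadenylated RNA was sequenced. Blastemas, the outgrowths from which a limb regrows, formed where a nerve had been rerouted to a wound; they were taken 10 days after injury with their wound epithelium. The groups were posterior blastemas treated with 25 uM U0126, which blocks the MEK kinases upstream of ERK (n = 5), untreated posterior blastemas (n = 4), anterior blastemas (n = 5) and uninjured forelimb tissue (n = 3). Both DMSO and Holtfreter's solution are mentioned in the labels, which leave unclear whether untreated posterior blastemas received either. By its title the series is about positional information in anterior and posterior tissue; the inhibitor was applied on the posterior side.

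C1q is the recognition molecule of the classical complement pathway. It is assembled from the 3 chains encoded by C1QA, C1QB and C1QC, binds antibody, dead cells and other targets, and passes the signal to the proteases C1r and C1s; on dying cells it also acts as a tag for uptake by phagocytes. In vertebrates studied so far its main source in tissues is the resident macrophage. CSF1R is the cell surface receptor tyrosine kinase for the growth factors CSF1 and IL34, and macrophages depend on it for survival, division and differentiation. Macrophages clear debris early after amputation, and axolotls depleted of them fail to regrow a limb.

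Libraries held 34181446 to 53856865 reads counted in genes, and even C1QA, the gene with the fewest reads, had a median of 1125 reads in the treated libraries, so counting error was small beside the spread between replicates. Levels are given as CPM, reads scaled to a common library total with TMM factors, which correct for differences in composition between libraries. Whether replicates are separate animals is not stated in the labels, and the p-values then cover only the spread between libraries, which may be technical. The library labelled uninjured replicate 1 stood apart. Over all tested genes its log2 CPM correlated with the other uninjured libraries at a mean r of 0.878 and with the U0126-treated posterior libraries at a mean r of 0.936. The library labelled U0126-treated posterior replicate 5 correlated with its own group at a mean r of 0.914 and with the uninjured libraries at a mean r of 0.921. The libraries labelled U0126-treated posterior replicate 4 and anterior replicate 4 were most like the posterior group, at mean r of 0.935 and 0.939, and the other 13 were most like their own. Whether the labels of uninjured replicate 1 and U0126-treated replicate 5 were exchanged was not tested and cannot be read from these files. Uninjured replicate 1 and U0126-treated replicate 5 were left out of some results, a choice made after their correlations with the groups were seen. Leaving out libraries chosen in this way can by itself raise the number of calls. U0126-treated replicate 4 and anterior replicate 4, also most like another group, were kept. The fold changes of the 4 genes, the ratios of summed C1q and some list results are given both with and without the libraries left out. Other values include them. The library names of anterior and uninjured replicates 1 to 3 begin alike, number by number, and the labels do not say whether such a pair came from 1 animal. Of 30 listed macrophage markers, 20 were found by symbol and had enough reads to be tested. The other 10, which include MRC1, CD163 and ADGRE1, were not found under these symbols. Passing a read filter does not by itself show that macrophages were present. The samples were bulk tissue, in which fewer cells of a type and less RNA per cell cannot be told apart.

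The 3 C1q genes fell to about 0.4 of the posterior level with U0126. C1QA was at 26.3, 17.5, 24.1, 44.9 and 29 CPM in the U0126-treated posterior libraries, against 88.2, 97.5, 55.8 and 56.3 CPM in the posterior libraries. Every treated library was below every untreated one, with U0126-treated replicate 4 the closest to the untreated range. The log2 fold change of C1QA was −1.39 ± 0.27 (SE), 0.381 of the posterior level, with an adjusted p of 0.0130 in edgeR's quasi-likelihood test. C1QB was at 47.3, 33.2, 36.9, 58.4 and 62.3 CPM with U0126, against 131, 160, 87.7 and 101 CPM without. Its groups also did not overlap, and its log2 fold change was −1.33 ± 0.23 (SE), 0.397 of the posterior level (edgeR adjusted p = 0.0117). C1QC was at 98.5, 67.9, 88.2, 138 and 116 CPM with U0126, against 251, 331, 170 and 223 CPM without. The log2 fold change of C1QC was −1.26 ± 0.22 (SE), 0.417 of the posterior level (edgeR adjusted p = 0.0120). The same libraries were low for each chain, replicate 2 the lowest of the treated group and replicate 3 the lowest of the untreated group.

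CSF1R was also lower in every U0126-treated library than in every untreated posterior library, with an estimate nearer to 0 than those of the chains. It was at 49.9, 38.2, 48.9, 59.9 and 60.6 CPM with U0126, against 66.4, 120, 68.7 and 67.7 CPM without. The untreated group was tight except for posterior replicate 2, and its other libraries lay only just above the highest treated ones. The log2 fold change was −0.65 ± 0.20 (SE), 0.637 of the posterior level, and the adjusted p of 0.0572 in edgeR's quasi-likelihood test was just above the threshold of 0.05. Its 95% interval ran from −1.08 to −0.22. Without posterior replicate 2 the estimate was −0.39 with an adjusted p of 0.212.

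Among all tested genes, 3.99% were called lower with U0126, and in 6.02% every treated library was below every untreated one. Of the 4 macrophage genes, 3 were called lower and 4 did not overlap. The 4 were chosen with earlier results of these data known, so these counts carry no independent weight. The C1QA call was lost without posterior replicate 1 (adjusted p = 0.0538), while C1QB and C1QC kept theirs without any 1 of the 17 libraries. Without both libraries that stood apart, the log2 fold changes were −1.41 (C1QA), −1.46 (C1QB), −1.32 (C1QC) and −0.73 (CSF1R), with adjusted p of 0.0146, 0.00524, 0.00834 and 0.0505, in a fit that called 5.92% of its genes lower.

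**Figure D1:**
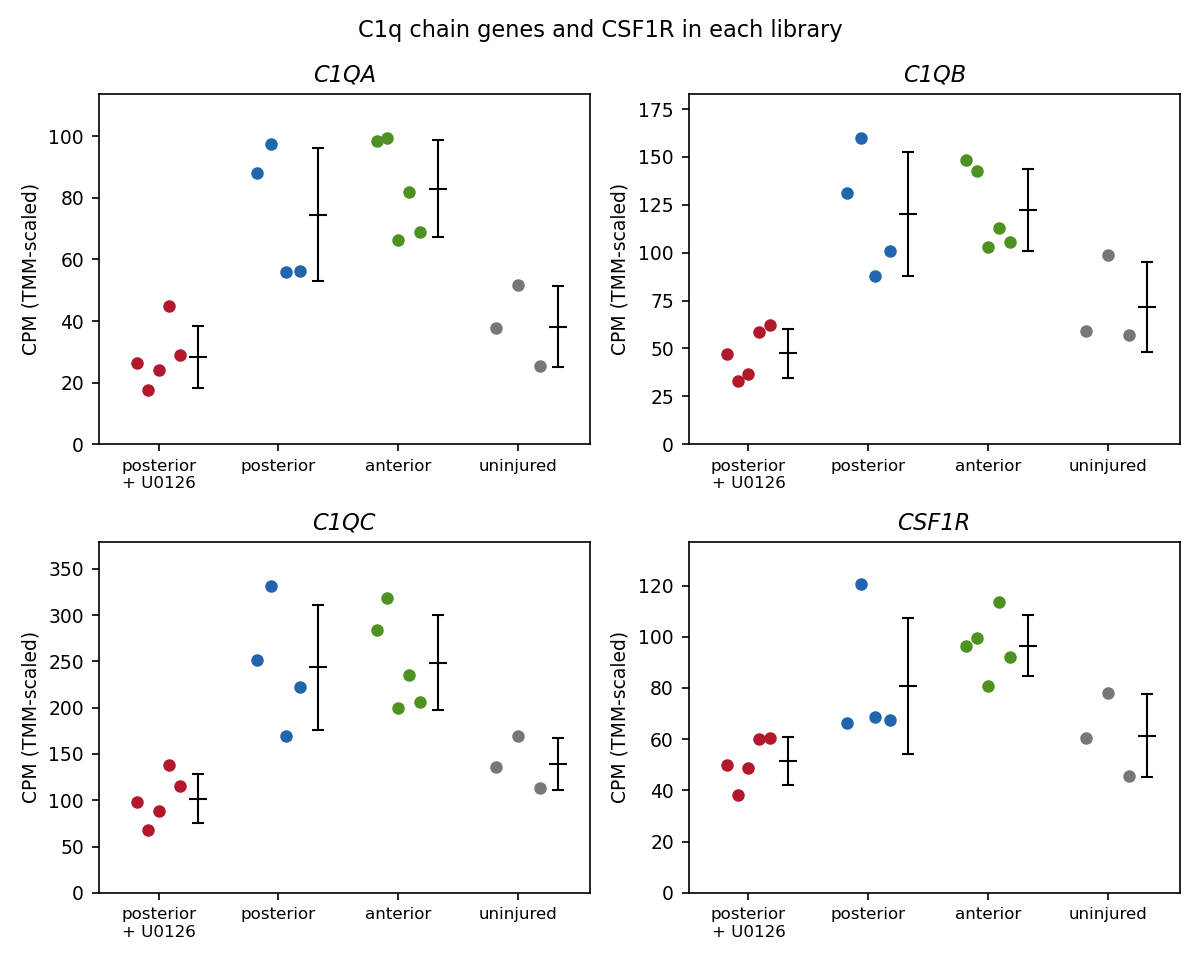
Level of each gene (CPM, linear axis from 0) in each of the 17 libraries; points are libraries in replicate order within a group, and the black bar beside each group is its mean with the SD. In all 4 panels the U0126-treated posterior libraries lie below every untreated posterior and every anterior library, and the single posterior point at 120 CPM stands above the rest of its group for CSF1R.

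Set against anterior blastemas, the treated posterior blastemas were lower in all 4 genes. C1QA was at 17.5 to 44.9 CPM in the U0126-treated posterior libraries, with a median of 26.3 CPM, against 98.5, 99.4, 66.4, 81.9 and 68.9 CPM in the anterior libraries. The log2 fold change was −1.55 ± 0.26 (SE, edgeR adjusted p = 0.0133). C1QB was at 149, 143, 103, 113 and 106 CPM in the anterior libraries, all above the treated libraries, which reached 62.3 CPM at most; the log2 fold change was −1.36 ± 0.22 (SE, edgeR adjusted p = 0.0129). For C1QC the anterior values of 284, 319, 200, 236 and 206 CPM were likewise above the treated maximum of 138 CPM. Its log2 fold change was −1.29 ± 0.21 (SE, edgeR adjusted p = 0.0129). CSF1R was at 96.5, 99.7, 80.7, 114 and 92.2 CPM in the anterior libraries. Here it passed the test at −0.91 ± 0.19 (SE, edgeR adjusted p = 0.0384).

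In this comparison 0.619% of all tested genes were called lower, and 2.36% were lower in every treated than in every anterior library. All 4 macrophage genes met both criteria. These counts carry no independent weight either, because the 4 genes were chosen with earlier results of these data known. The C1q calls held without any 1 library. That of CSF1R was lost without U0126-treated replicates 1, 2 or 3 and without anterior replicates 1, 2, 4 or 5, each left out singly, with an adjusted p of up to 0.106. Without both libraries that stood apart, C1QA, C1QB, C1QC and CSF1R were at −1.56, −1.48, −1.34 and −0.97 (adjusted p of 0.0161, 0.00600, 0.0117 and 0.0273), and 2% of all genes were called lower. Anterior and posterior blastemas were separate groups, but the treated libraries are the same in both comparisons. Treated posterior and anterior blastemas differ in both the inhibitor and the side of the limb, which this comparison cannot tell apart.

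No difference between posterior and anterior blastemas passed the test in any of the genes. C1QA averaged 74.5 ± 21.6 CPM in posterior and 83.0 ± 15.7 CPM in anterior blastemas (SD, n = 4 and 5), and its log2 fold change was −0.16 with a 95% interval from −0.73 to 0.42 (edgeR adjusted p = 0.909). C1QB averaged 120 ± 32.4 CPM in posterior and 122 ± 21.5 CPM in anterior blastemas, with an interval from −0.52 to 0.47 (adjusted p = 0.982). C1QC averaged 244 ± 67.5 CPM and 249 ± 51.2 CPM in the same order of groups, with an interval from −0.50 to 0.44 (adjusted p = 0.981). The signs of the C1QB and C1QC estimates depended on single libraries. CSF1R averaged 80.8 ± 26.4 CPM in posterior and 96.5 ± 12 CPM in anterior blastemas, a log2 fold change of −0.26 with an interval from −0.69 to 0.17 (adjusted p = 0.747). The groups overlapped in all 4 genes; between these sides 4.85% of tested genes did not overlap and 0.00516%, a single gene, was called.

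Relative to uninjured tissue, the untreated blastemas had higher means in all 4 genes, without passing the test. Uninjured replicates 1, 2 and 3 were at 37.6, 51.6 and 25.3 CPM for C1QA, at 59.0, 98.9 and 56.9 CPM for C1QB, at 135, 169 and 114 CPM for C1QC and at 60.3, 78.1 and 45.6 CPM for CSF1R. Replicate 2 was the highest of the uninjured group in every gene. In anterior blastemas every library was above every uninjured one for all 4 genes, a separation that 5.8% of tested genes showed in this direction. The genes were chosen with earlier results of these data known, so this count and that for posterior blastemas below carry no independent weight. The log2 fold changes of anterior over uninjured were 1.12 ± 0.30 for C1QA, 0.77 ± 0.26 for C1QB, 0.83 ± 0.25 for C1QC and 0.65 ± 0.22 for CSF1R (SE), with edgeR adjusted p of 0.0789, 0.120, 0.0951 and 0.125. Of all tested genes, 0.067% were called higher in this comparison, and the 4 genes had unadjusted p under 0.05 without being called. C1QA passed when uninjured replicate 1 was left out (adjusted p = 0.0487), a fit that called 9.98% of its genes higher. DESeq2 on the same genes called C1QA, C1QB and C1QC, with adjusted p of 0.00916, 0.0485 and 0.0225; it called 3.89% of all genes higher.

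Posterior over uninjured tissue gave 0.96 ± 0.31 for C1QA, 0.74 ± 0.27 for C1QB, 0.80 ± 0.26 for C1QC and 0.40 ± 0.23 for CSF1R on the log2 scale (SE), with edgeR adjusted p of 0.0949, 0.127, 0.0930 and 0.340. C1QA and C1QC did not overlap between the groups, against 8.94% of tested genes higher in every posterior library, and 0.866% of genes were called higher. DESeq2 called these same chains, C1QA (adjusted p = 0.0307) and C1QC (adjusted p = 0.0318), and 5.63% of all genes higher. For CSF1R the interval of the posterior difference ran from −0.09 to 0.89. Without both libraries that stood apart, anterior over uninjured tissue gave 1.11, 0.65, 0.81 and 0.64 for C1QA, C1QB, C1QC and CSF1R, with adjusted p of 0.0547, 0.130, 0.0748 and 0.110. Posterior over uninjured tissue gave 0.96, 0.63, 0.79 and 0.39, with adjusted p of 0.110, 0.171, 0.103 and 0.360. None of the 4 was called in that fit, although it called 12.1% and 9.35% of all genes higher in these comparisons.

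The treated posterior blastemas lay near the uninjured level or below it. C1QA averaged 28.4 ± 10.2 CPM with U0126 and 38.2 ± 13.2 CPM in uninjured tissue (SD, n = 5 and 3), C1QB 47.6 ± 12.8 CPM and 71.6 ± 23.6 CPM, C1QC 102 ± 26.6 CPM and 140 ± 28.1 CPM, and CSF1R 51.5 ± 9.21 CPM and 61.3 ± 16.2 CPM. The log2 fold changes were −0.43, −0.59, −0.46 and −0.25, their adjusted p in edgeR's test was 0.506 or more, and the groups overlapped in every gene. The intervals still allowed a fall of up to 1.04, 1.12, 0.97 and 0.72 on the log2 scale. In this comparison edgeR called 0% of the genes, with 1888 at an unadjusted p under 0.05, DESeq2 called 34, and 2.36% did not overlap. That 0% depended on the libraries that stood apart: without uninjured replicate 1 edgeR called 1714 genes, and without both it called 4344, 22% of those tested. None of the 4 was among them, at −0.45, −0.83, −0.53 and −0.33 for C1QA, C1QB, C1QC and CSF1R (adjusted p of 0.411, 0.0552, 0.224 and 0.406).

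The order of the mean levels was thus the same in each gene: anterior blastemas highest, then posterior blastemas, uninjured tissue and U0126-treated posterior blastemas. Neighbours in this order (anterior and posterior, posterior and uninjured, uninjured and treated) were not separated by edgeR's test. Of the steps across the order, treated against posterior passed for the C1q chains but not for CSF1R. Treated against anterior passed for all 4 genes, and anterior against uninjured for none of them.

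**Figure D2:**
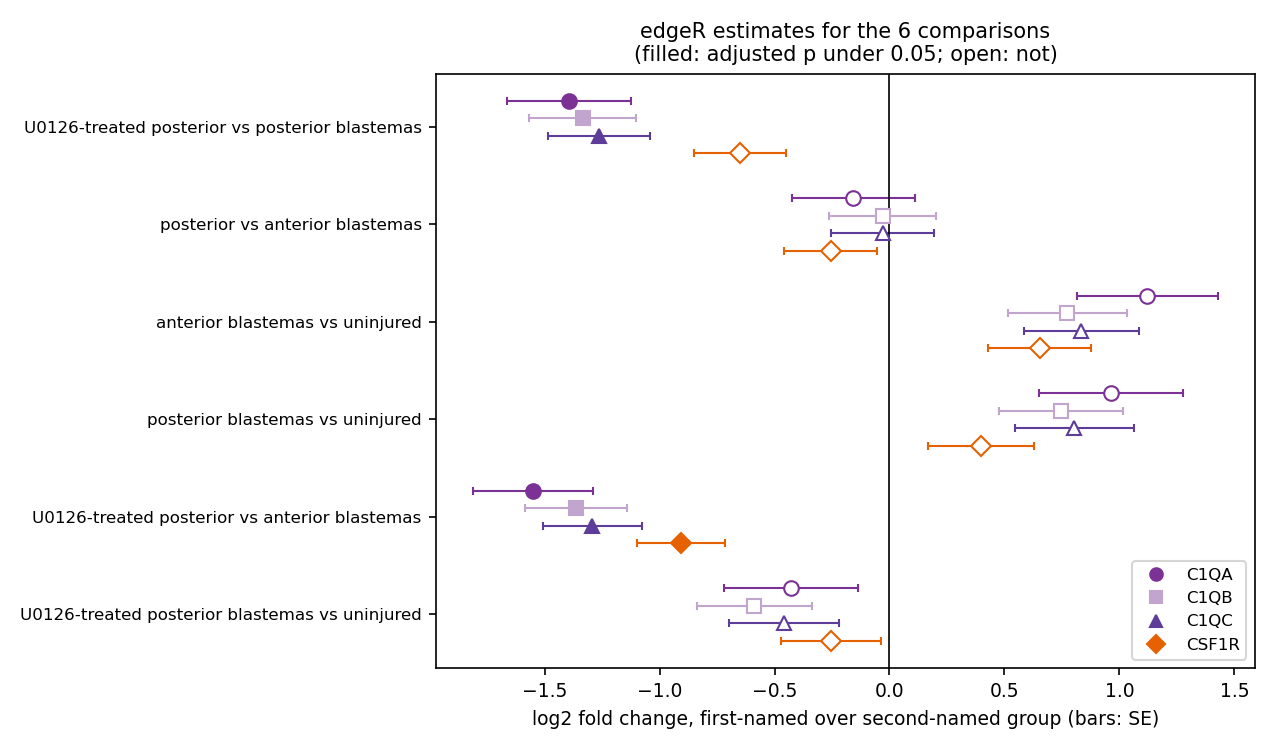
Log2 fold change with its SE (horizontal bars) of the 4 genes in the 6 comparisons, first-named group over second-named; filled symbols have an adjusted p under 0.05 in edgeR's test and open ones do not. The C1q chains lie close together at −1.39 to −1.26 for U0126-treated posterior against posterior blastemas, with CSF1R nearer to 0 at −0.65, and the filled symbols occur in the 2 comparisons of treated with untreated blastemas.

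The 3 chains varied together from library to library. Over the 17 libraries the Pearson correlation of log2 CPM was 0.968 between C1QA and C1QB, 0.981 between C1QA and C1QC and 0.983 between C1QB and C1QC, and after subtracting group means it was 0.884, 0.930 and 0.927. CSF1R followed them at 0.900 to 0.914, and at 0.773 to 0.792 with group means subtracted. These are descriptions over libraries that share depth and composition, not tests. Read numbers were not corrected for transcript length, so only the steadiness of a ratio can be read from it. C1QC over C1QB was 2.15 ± 0.224 in U0126-treated posterior, 2.03 ± 0.135 in posterior, 2.03 ± 0.137 in anterior and 2.0 ± 0.291 in uninjured libraries (SD, n = 5, 4, 5 and 3), and ran from 1.71 to 2.39 over all of them. C1QC over C1QA ran from 2.85 to 4.50 and C1QB over C1QA from 1.30 to 2.25. These ratios were lower in every anterior than in every uninjured library. C1QC over C1QA was 2.88 to 3.21 in anterior and 3.29 to 4.50 in uninjured libraries. C1QB over C1QA was 1.38 to 1.55 and 1.57 to 2.25 in the same order. Treated and untreated posterior libraries overlapped both of these groups, and the differences were not tested.

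The ratio of the summed C1q chains to CSF1R did not overlap between treated and untreated posterior libraries. It averaged 3.41 ± 0.387 with U0126 and 5.54 ± 1.12 without, ranging from 3.05 to 4.02 and from 4.56 to 7.08. In anterior blastemas it was 4.72 ± 0.817, with a lowest value of 3.79 inside the treated range, and in uninjured tissue 4.08 ± 0.221. CSF1R over PTPRC, which encodes the pan-leukocyte phosphatase CD45, was 1.33 ± 0.278 in U0126-treated posterior, 1.27 ± 0.223 in posterior, 1.44 ± 0.299 in anterior and 1.13 ± 0.103 in uninjured libraries. Summed C1q over PTPRC was 4.53 ± 1.15 with U0126, 6.94 ± 1.13 in posterior, 6.61 ± 0.646 in anterior and 4.63 ± 0.565 in uninjured libraries. Summed C1q was thus lower on average in treated than in untreated posterior tissue also relative to PTPRC and to CSF1R, although for PTPRC the groups overlapped (2.89 to 6.13 with U0126 and 5.41 to 8.03 without); the ratios were not tested. Without U0126-treated replicate 5 the treated means were 3.41 ± 0.447 over CSF1R and 4.48 ± 1.33 over PTPRC (SD, n = 4). Without uninjured replicate 1 the uninjured means were 4.19 ± 0.137 and 4.73 ± 0.758 (SD, n = 2).

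**Figure D3:**
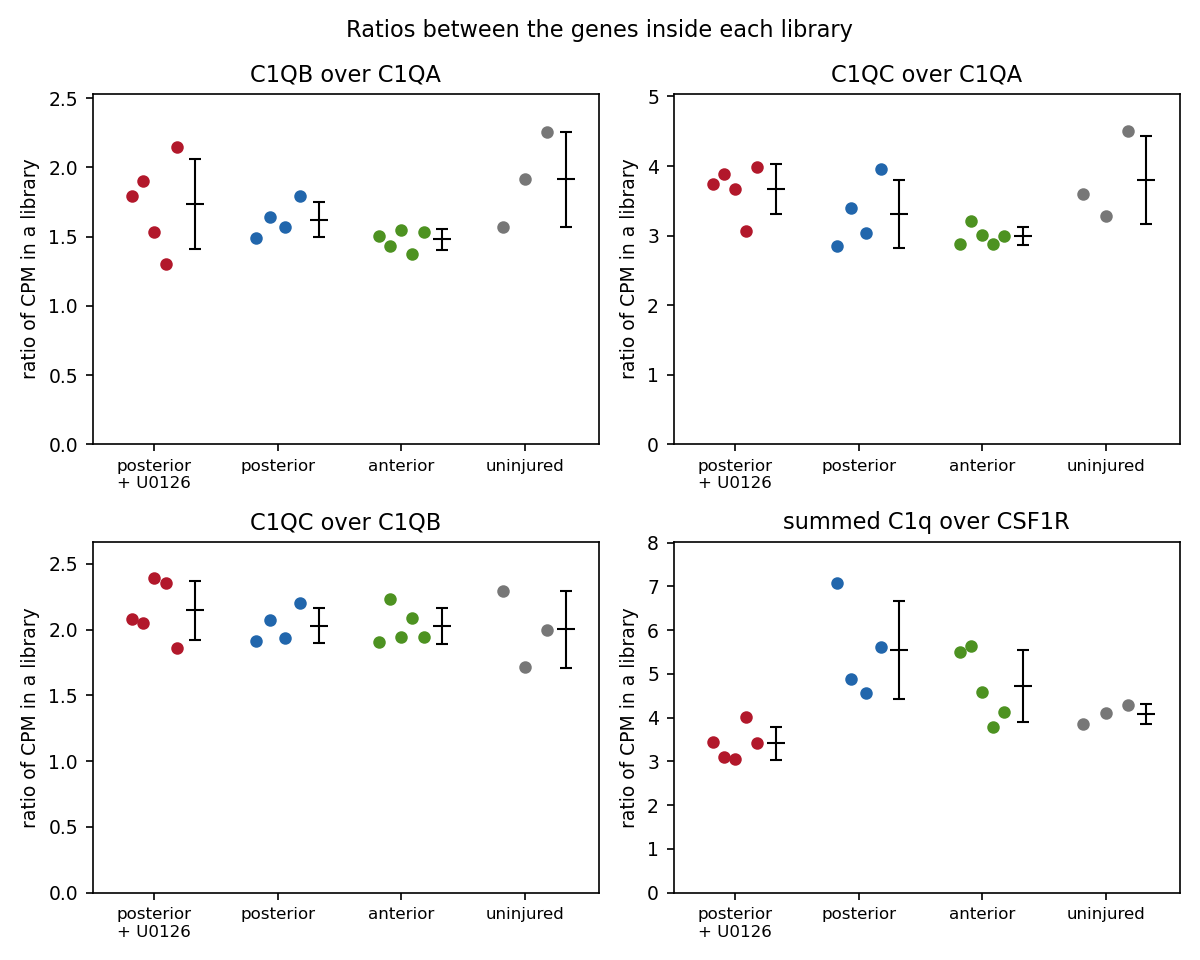
Ratio of CPM between genes inside each library (points) with group mean and SD (black bars), on linear axes from 0; CPM is not corrected for transcript length. C1QC over C1QB stays between 1.71 and 2.39 in all groups, while the summed C1q chains over CSF1R reach 4.02 at most in U0126-treated posterior libraries and 4.56 at least in untreated posterior libraries.

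The ligands of CSF1R had estimates close to 0 with U0126, but their treated libraries were widely spread. Sizeable changes in either ligand could have gone undetected. CSF1, the growth factor that gives the receptor its name, averaged 59.9 ± 37.9 CPM with U0126 and 55.5 ± 13.4 CPM in posterior blastemas (SD, n = 5 and 4), a log2 fold change of 0.11 (edgeR adjusted p = 0.895); it is named here for its role. IL34, the second ligand, which skin epithelium is known to make in mice, averaged 27.8 ± 21.5 CPM with U0126 and 24.1 ± 7.32 CPM without (0.21, adjusted p = 0.848). Its treated libraries were spread from 11.7 to 62.9 CPM, and in uninjured tissue it averaged 49.4 ± 31.1 CPM.

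Among transcription factors of the macrophage lineage, RUNX1 fell with U0126. RUNX1, needed for blood stem cells and active in other tissues too, was at 52.5, 43.2, 56.9, 79.6 and 53.3 CPM with U0126, against 116, 119, 104 and 100.1 CPM in posterior blastemas. No treated library reached the untreated range, and the log2 fold change was −0.94 ± 0.18 (SE, edgeR adjusted p = 0.0130; lost without posterior replicate 1, adjusted p = 0.0537). RUNX1 was also higher in posterior blastemas than in uninjured tissue, by 0.94 (adjusted p = 0.0392), and lower in treated posterior than in anterior blastemas, at −0.79 (adjusted p = 0.0417). Those calls were less stable. The posterior one was lost without posterior replicates 1, 2 or 3, anterior replicates 1 or 5, or uninjured replicates 2 or 3; the treated one held only when the library left out was U0126-treated replicate 4, anterior replicate 4 or an uninjured library, and was lost with total-count scaling and with no low-count filter. SPI1, the master regulator PU.1 that drives CSF1R expression in mammals, averaged 15.5 ± 3.81 CPM with U0126, 27.5 ± 12.2 CPM in posterior, 29.1 ± 8.21 CPM in anterior and 18.2 ± 5.12 CPM in uninjured tissue. Its order of means was that of the C1q genes, but its log2 fold change with U0126, −0.83, had an adjusted p of 0.0824. IRF8, a factor of monocytes and dendritic cells, was at −0.96 (adjusted p = 0.160). Of the 9 tested genes of the CSF1R axis, CSF1R included, 0 rose and 1 fell with U0126, 6 had negative estimates and the median was −0.52; over all tested genes 4.13% were called higher and 3.99% lower, so a single call in a list of this size is no result about the list.

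The other macrophage genes mostly had lower estimates with U0126, and 1 of 20 passed, a share near the 3.99% of all tested genes that were called lower. MERTK, a receptor kinase with which macrophages engulf dying cells, was at 11, 6.96, 11.8, 9.14 and 7.28 CPM with U0126, against 19.2, 28.9, 12.4 and 18.3 CPM in posterior blastemas. The groups did not overlap, though U0126-treated replicate 3 came close to posterior replicate 3. The log2 fold change was −1.09 ± 0.23 (SE, edgeR adjusted p = 0.0162), and the call was lost without posterior replicates 1 or 2. Against anterior blastemas MERTK fell by 1.25 on the log2 scale (adjusted p = 0.0159; lost without U0126-treated replicate 2 or anterior replicate 2). CD68, a lysosomal membrane protein of macrophages, averaged 102 ± 35.1 CPM with U0126 and 157 ± 36.2 CPM in posterior blastemas (−0.62, adjusted p = 0.182). MARCO, a scavenger receptor, averaged 82.0 ± 41.4 CPM and 184 ± 71.7 CPM in these groups (−1.17, adjusted p = 0.136). AIF1, the actin-binding protein known as IBA1, was at −0.85 (adjusted p = 0.127).

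Over the 20 tested macrophage markers, 18 estimates with U0126 were negative and the median log2 fold change was −0.63, beside 0.00 over all genes. Against anterior blastemas 18 were negative as well, with a median of −0.72. Those comparisons share the treated libraries. Without both libraries that stood apart the medians were −0.52 and −0.66, each with 16 negative estimates and MERTK alone called. Anterior over uninjured tissue gave 16 positive estimates of 20 and a median of 0.50. With all libraries edgeR called 0 of the 20 markers, beside 0.067% of all tested genes called higher and 0.139% lower. That 0 therefore says little about the list. MERTK was the nearest to the threshold, at 1.08 (edgeR adjusted p = 0.0596). In the fit without the libraries that stood apart, chosen after their correlations were seen, the uninjured group held 2 libraries. There 9 of the 20 were called higher in anterior than in uninjured tissue. These were MERTK, CD68, MARCO, ACP5, SLC11A1, APOE, GPNMB, HMOX1 and LGMN, named because they passed there. The share over all genes was 12.1%, and the median of the list was 0.69. In posterior over uninjured tissue that fit called 8 higher, beside 9.35% of all genes. In treated posterior over uninjured tissue it called 4 higher and 2 lower, beside 12.4% and 9.59% of all genes, and 11 estimates were positive. The summed level of the list was 919 to 2122 CPM in U0126-treated posterior, 1640 to 3408 CPM in posterior, 2089 to 3579 CPM in anterior and 1204 to 2390 CPM in uninjured libraries, so treated and untreated posterior libraries overlapped. The lowest treated value was that of replicate 5; without it the treated libraries began at 1543 CPM. The 3 C1q estimates, −1.39 to −1.26, lay below those of 19 of the 20 markers, the exception being CD14, a lipopolysaccharide co-receptor with few reads, at −1.65 (adjusted p = 0.175).

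Genes found in all leukocytes had estimates of about the size seen for CSF1R. PTPRC averaged 40.6 ± 12.4 CPM with U0126 and 66.2 ± 29.4 CPM in posterior blastemas (−0.71, adjusted p = 0.156), and DOCK2, a regulator of leukocyte migration, was at −0.63 (adjusted p = 0.186). Of 12 tested pan-leukocyte genes, 9 had negative estimates, the median was −0.57 and 0 passed. Their summed level was 617 to 860 CPM in treated and 701 to 1076 CPM in untreated posterior libraries. Granulocyte markers (5 tested, median −0.59) had no call. MMP9, a matrix protease of neutrophils and wound epithelium, was at −1.37 (adjusted p = 0.0857), with 105 ± 93.1 CPM in posterior blastemas. Among 13 lymphocyte markers the median was −0.25 and 1 rose, BLNK, an adaptor of B cell receptor signalling, at 0.95 (adjusted p = 0.0362; lost without any 1 of U0126-treated replicates 1 to 3 or the posterior libraries). Its levels of 59.6 ± 12.3 CPM with U0126 and 30.9 ± 3.13 CPM without were far above those of the B cell receptor subunits CD79A and CD79B, which averaged at most 2.69 CPM in any group. With all libraries, 4.13% of tested genes were called higher and 3.99% lower with U0126. Lists of this size with 0 or 1 call therefore say little about these cell types.

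**Figure D4:**
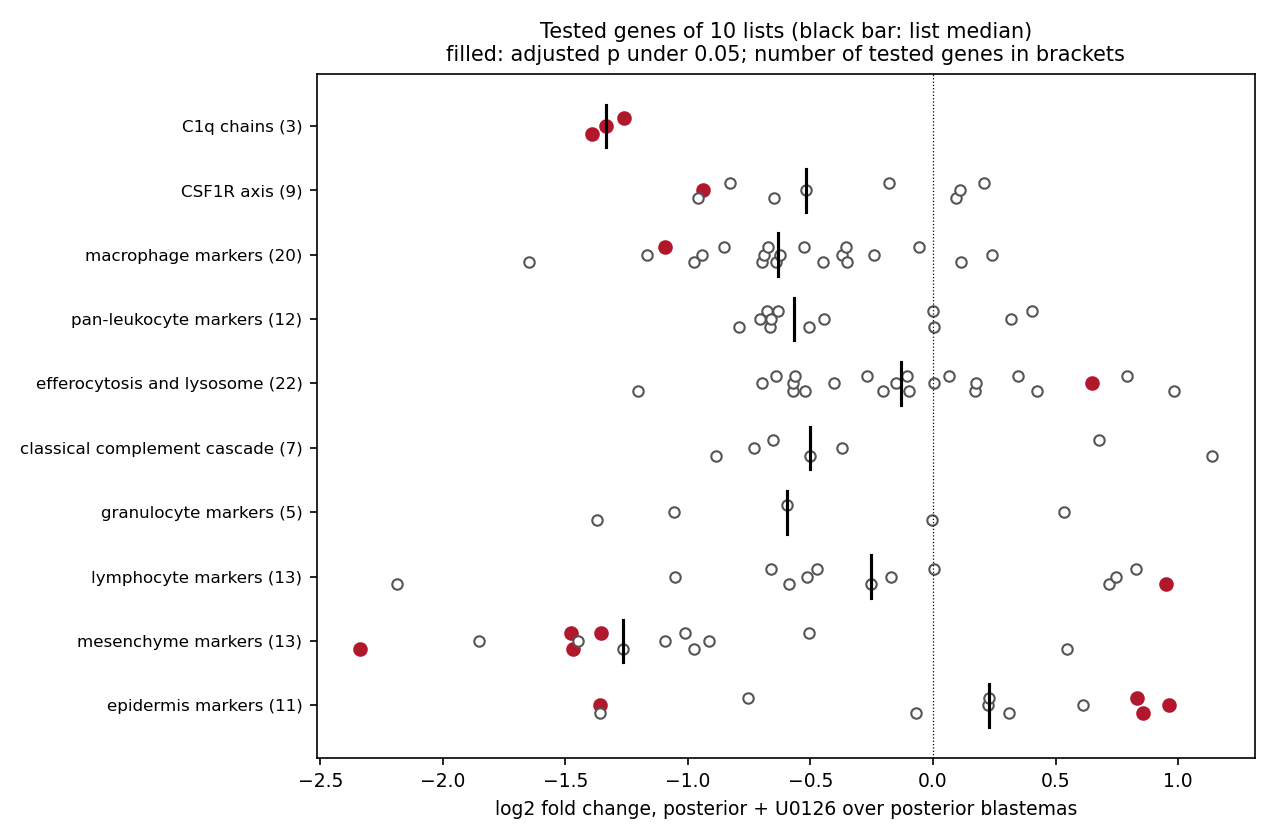
Log2 fold change of U0126-treated posterior over posterior blastemas for each tested gene of 10 lists (points; rows jittered for legibility), with list medians as black bars; filled points have an adjusted p under 0.05 in edgeR's test. The 3 C1q chains sit at −1.39 to −1.26, left of the medians of the macrophage (−0.63) and pan-leukocyte (−0.57) lists, and the mesenchyme list has a median of −1.27.

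Genes of other cell types moved in the same comparison. Of 13 tested mesenchyme markers 4 fell with U0126 (PRRX2, FSTL1, PDGFRA and PDGFRB), 12 had negative estimates and the median was −1.27. Their summed level was 5302 to 14162 CPM in treated and 17664 to 26835 CPM in untreated posterior libraries, which did not overlap. Over all tested genes 4.13% were called higher and 3.99% lower. Of 11 epidermis markers 3 rose (GRHL1, GRHL2 and CDH1) and 1 fell, KRT8, with a summed level of 3083 to 4451 CPM in treated and 2685 to 3887 CPM in untreated posterior libraries. These calls rested on few libraries, as did those over all genes. Leaving out posterior replicate 1 ended all 8, in a fit that called 0.657% of all genes, beside 8.12% with every library. Leaving out posterior replicate 2 ended all but that of PDGFRA, in a fit that called 1.59% of all genes. Those of FSTL1, PRRX2 and GRHL2 were also lost without U0126-treated replicate 1, that of PRRX2 without U0126-treated replicates 2 or 3 and that of GRHL2 without posterior replicate 3, and those of PDGFRB and KRT8 were lost without most single libraries. When both libraries that stood apart were left out, 7 mesenchyme markers fell (COL1A1, COL1A2 and DCN in addition), beside 5.92% of all genes. DSP joined the epidermis markers that rose, where 7.1% of all genes were called higher, and KRT8 no longer passed. Against anterior blastemas all 13 mesenchyme estimates were negative, with a median of −1.15, and 0 passed, where 0.619% of all tested genes were called lower. The part of the tissue composition in the lower C1q levels was not tested.

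Other genes of the classical complement cascade were spread widely between libraries. The proteases that C1q activates had low and uneven levels: C1R averaged 6.08 ± 5.21 CPM with U0126 and 7.88 ± 4.96 CPM in posterior blastemas (−0.37, adjusted p = 0.855), and C1S averaged 16.3 ± 8.16 CPM and 10.2 ± 5.6 CPM (0.68, adjusted p = 0.497). C3, on which all complement pathways converge, averaged 54.8 ± 37.3 CPM with U0126 and 90.8 ± 47.3 CPM without (−0.73, adjusted p = 0.487). Of 7 tested genes of the classical cascade beyond C1q, 0 passed in this comparison or in any of the other 5, by edgeR's test on all libraries; since at most 8.12% of all tested genes were called in any comparison, 0 of 7 says little about the list. With spreads of this size, changes as large as those of the C1q chains could have gone undetected. In anterior over uninjured tissue, where the C1q estimates were positive, all 7 were negative (median −1.35). Without both libraries that stood apart C1S alone was called lower, beside 10.7% of all genes, so this call says little about the list.

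Regulators and receptors of complement had no call with U0126 either, with all libraries included. Since 4.13% of all tested genes were called higher and 3.99% lower, this says little about such short lists. SERPING1, the inhibitor of C1r and C1s, averaged 34.4 ± 15.7 CPM with U0126 and 51.8 ± 13.5 CPM in posterior blastemas (−0.59, adjusted p = 0.309), and CD59, which blocks the membrane attack complex, was at −0.71 (adjusted p = 0.133). All 4 tested inhibitors had negative estimates. MASP1, a protease of the lectin pathway, was at 1.09 ± 0.852 CPM with U0126, 3.50 ± 2.08 CPM in posterior and 6.79 ± 2.63 CPM in anterior blastemas; its log2 fold change against anterior tissue was −2.64 (adjusted p = 0.0534). LRP1 and CALR, the endocytic receptor and the chaperone that take part in uptake of C1q-coated cells in mammals, were at −0.54 (adjusted p = 0.108) and 0.56 (adjusted p = 0.171). With both libraries that stood apart left out, CALR and the C1q-binding protein C1QBP rose with U0126, where 7.1% of all genes were called higher. In that fit MASP1 was called lower than in anterior blastemas, where 2% of all genes were called lower.

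Genes that share the C1q domain with the chains but work elsewhere were tested as relatives, and 3 of 18 fell with U0126, beside 3.99% of all tested genes. These were EMILIN2, an elastic fibre glycoprotein (−1.12, adjusted p = 0.0326), COL8A2, a short-chain collagen (−2.47, adjusted p = 0.0362), and C1QTNF7, a secreted protein of the adiponectin type (−1.23, adjusted p = 0.0367). Each of these calls was lost without any 1 of U0126-treated replicates 1 to 3 or of the 4 posterior libraries, and that of EMILIN2 also without U0126-treated replicate 5. COL8A2 was at 0.672 ± 0.467 CPM with U0126, 3.72 ± 0.697 CPM in posterior, 0.209 ± 0.131 CPM in anterior and 0.630 ± 0.380 CPM in uninjured tissue, so its posterior libraries stood above those of the other groups.

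Over 22 tested genes for uptake and digestion of dead cells, the median estimate under U0126 was −0.13 on the log2 scale. PROS1, a ligand that bridges dying cells to MERTK, was at −1.21 (edgeR adjusted p = 0.0887). The cathepsin CTSZ was at −0.57 (adjusted p = 0.0866) and the cholesterol exporter ABCA1 at −0.56 (adjusted p = 0.299). CTSZ passed, as lower, once both libraries that stood apart were left out, in a fit that called 5.92% of all genes lower. Of 10 tested inflammatory genes 0 passed with all libraries, with a median of −0.36, beside 4.13% of all tested genes called higher and 3.99% lower. MYD88, an adaptor of Toll-like receptors, was called higher without those libraries, as were 7.1% of all genes. TGFB1, a cytokine made by many cells including macrophages, averaged 40.4 ± 26 CPM with U0126 and 87.8 ± 22 CPM without (−1.12, adjusted p = 0.101).

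In RefSeq's annotation of the assembly UKY_AmexF1_1, used here for names and gene order alone, the 3 C1q genes follow each other with no other coding gene between them, in the order C1QB, C1QC and C1QA. EPHB2, an ephrin receptor and the coding gene on the C1QB side, was at −0.57 with U0126 (edgeR adjusted p = 0.142), and LOC138472609, the one on the C1QA side, at 0.69 (adjusted p = 0.285). CSF1R lies between LOC138582623, at −2.14 (adjusted p = 0.230) and followed by HMGXB3, at 0.39 (adjusted p = 0.0676), and, on the other side, PDGFRB, the mesenchymal growth factor receptor, which fell with U0126 by 1.36 on the log2 scale (adjusted p = 0.0441). That call held only when the library left out was U0126-treated replicate 4, anterior replicates 2 or 3, or an uninjured library. Against anterior blastemas PDGFRB was at −0.54 (adjusted p = 0.492) where CSF1R was at −0.91, so the neighbours differed in which comparison passed, a difference that was not itself tested. The annotation places no other coding gene over any of the 4. Between 62.6% and 70.7% of their reads lay on the same strand as 65.5% to 68.4% of all reads of the libraries.

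The genes most like the C1q chains across the 17 libraries, by Pearson correlation of log2 CPM with the mean of the chains among 10386 named genes, were AKNA, a centrosomal protein abundant in lymphoid organs (r = 0.914), B4GALNT4, a glycosyltransferase (r = 0.912), CD247, the zeta chain of the T cell receptor (r = 0.911), GNAI2, a G protein subunit (r = 0.911), and IRAG2, a membrane protein of the endoplasmic reticulum (r = 0.908). DUSP7, a phosphatase that inactivates ERK, was sixth (r = 0.907) and F13A1, the A subunit of a clotting factor made by macrophages and platelets in mammals, twelfth (r = 0.891). Of the 15 highest, 8 were called lower with U0126, beside 3.99% of all tested genes. Among the 8 were B4GALNT4 (−1.91, edgeR adjusted p = 0.0129), F13A1 (−1.62, adjusted p = 0.0130), CD247 (−1.06, adjusted p = 0.0329) and DUSP7 (−0.78, adjusted p = 0.0129). Because likeness was measured on the same libraries, these calls carry no independent weight.

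With group means subtracted, the genes most like C1q were LPXN, an adaptor protein of leukocytes (r = 0.912), DOCK2 (r = 0.885) and IRAG2 (r = 0.882), and PTPRC (r = 0.825) and INPP5D, a leukocyte inositol phosphatase (r = 0.822), were among the 15 highest. The list for CSF1R was led over all libraries by HAVCR2, the immune receptor TIM-3 (r = 0.951), RGS18, a regulator of G protein signalling (r = 0.927), and NCKAP1L, an actin regulator of blood cells (r = 0.911). Within groups it was led by PLEK, a leukocyte and platelet protein (r = 0.929), and HAVCR2 (r = 0.899). HAVCR2, like CSF1R, was not called against posterior blastemas (−0.53, edgeR adjusted p = 0.173) and was lower against anterior blastemas (−1.04, adjusted p = 0.0404). It was picked for its likeness to CSF1R in these same libraries, so this match carries no independent weight.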

How the data were processed

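The 17 samples were grouped by their titles. The submitters' processing notes list Trimmomatic 0.39 and STAR 2.7.3a; which genome and annotation they used is not given in the sources used here. What the authors deposited are unnormalized read counts for each gene. Unstranded counts were taken, since the 2 strands differed by only 1.90 to 2.16 times; 83.6% to 85.8% of reads lay in genes, and the rest was left out. After filterByExpr and TMM scaling (0.862 to 1.08), all 4 groups entered a single model in edgeR 4.0.16 under R 4.3.3, with robust quasi-likelihood F tests and Benjamini-Hochberg adjustment over the 19398 tested genes (threshold 0.05). Each SE was derived from its F statistic and adds nothing to the p-value. Correlations used log2 CPM with a prior count of 0.5. The procedure was tested on simulated data. Alternatives were DESeq2 1.42.0, other scalings, filters and count columns, replicate blocks and leaving out each library.

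The 4 genes and 20 gene lists (293 symbols, 212 in the files) were chosen with earlier results of these data known. From each list the text names a selection of the 3 genes with the smallest p in each comparison and of those called with U0126; CSF1 and CD79B, outside this rule, were added after their values were seen. Results on a few listed genes are not reported here. Like genes are the 15 (C1q) and 10 (CSF1R) highest correlations. Deviations of same-numbered replicates correlated at −0.248 to 0.313 (0.271, −0.248 and −0.059 for the anterior and uninjured libraries whose names begin alike). For the replicates numbered 1 all values were positive, from 0.140 to 0.313. Numbers were not taken as pairs in the main model, and whether they mark pairs was not tested. Replicate counts differed beyond sampling noise, with chi-square values of 64.6 to 630 per degree of freedom.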

Additional observations from a re-analysis of the deposited data

Results flagged for a closer look

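CSF1R in the library labelled posterior replicate 2, at 120 CPM, lay far from the rest of its group, at 66.4, 68.7 and 67.7 CPM. Its gap to the nearest library was 0.958 of the group's range, above Dixon's critical value of 0.829 for 4 samples. The C1q chains were highest in that library too, at 97.5 (C1QA), 160 (C1QB) and 331 CPM (C1QC), with gaps of 0.223, 0.399 and 0.497 of their ranges, below the critical value. PTPRC was at 109 CPM there, against 45.9 to 62.8 CPM in the other posterior libraries. Of 12 sets of values examined (4 genes in the groups with 4 or 5 libraries), this was the only one past its critical value, and chance passes about 1 in 20.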

How the results depend on the processing

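Of 24 estimates (4 genes in 6 comparisons), those not named here kept their direction and their side of the threshold under every alternative. The replicate number as a block in the model of all libraries left CSF1R against anterior blastemas at −0.90 (adjusted p = 0.050, just above the threshold) and changed no other call of the 4 genes. The block with only the 2 groups compared ended the calls. Against posterior blastemas it gave −1.46 for C1QA (adjusted p = 0.115), −1.46 for C1QB (0.0862) and −1.33 for C1QC (0.0966). Against anterior blastemas it gave −1.59 (0.132), −1.39 (0.132), −1.30 (0.143) and, for CSF1R, −0.92 (0.128). With the same 2 groups and no block, these calls of the 4 genes held. DESeq2 added calls: CSF1R with U0126 at −0.65 (0.0209); C1QA, C1QB and C1QC in anterior over uninjured tissue at 1.11, 0.76 and 0.82; and C1QA and C1QC in posterior over uninjured tissue at 0.96 and 0.80. Of the list genes named, the block in the model of all libraries also ended the calls of BLNK, EMILIN2, GRHL2, KRT8 and PRRX2 with U0126 and of RUNX1 (treated against anterior, posterior over uninjured), and the block with only the 2 groups ended the call of every named list gene. Using only the 2 groups without the block ended those of C1QTNF7, GRHL2, KRT8, PDGFRB and PRRX2 and the same calls of RUNX1; total-count scaling ended those of BLNK, KRT8 and PDGFRB, no low-count filter those of KRT8 and PDGFRB, and the stranded counts those of C1QTNF7 and COL8A2.

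Leaving out each library in turn gave, for U0126-treated against posterior blastemas, −1.62 to −1.24 (C1QA, not called without posterior replicate 1), −1.46 to −1.16 (C1QB), −1.40 to −1.08 (C1QC) and −0.73 to −0.39 (CSF1R, called without U0126-treated replicate 4 or uninjured replicate 3). CSF1R against anterior blastemas ran from −0.97 to −0.82 and C1QA in anterior over uninjured tissue from 0.90 to 1.40. In posterior over anterior tissue C1QB ran from −0.20 to 0.095 and C1QC from −0.21 to 0.11, with positive values without posterior replicate 3 (0.095 and 0.11), posterior replicate 4 (0.05 and 0.01), anterior replicate 1 (0.05 and 0.02) or anterior replicate 2 (0.03 and 0.08); the cause was not tested.

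Numbers of called genes moved more. For U0126-treated against posterior blastemas 1576 genes were called, 127 without posterior replicate 1, 2381 without U0126-treated replicate 4, 450, 698 and 678 without U0126-treated replicates 1, 2 and 3, 307 and 850 without posterior replicates 2 and 3, 947 with the block, 983 and 25 with only the 2 groups compared (without and with the block), 2953 by DESeq2 and 2575 without both libraries that stood apart. Total-count scaling changed its split of 802 higher and 774 lower to 440 and 736, and shifted the median of all genes to 0.12 and 0.14 for anterior and posterior over uninjured tissue. Over all alternatives the other counts ran from 0 to 127 (posterior over anterior, 1), 0 to 4492 (anterior over uninjured, 40), 0 to 3108 (posterior over uninjured, 408), 0 to 1271 (treated against anterior, 229) and 0 to 4344 (treated against uninjured, 0). Without uninjured replicate 1, counts against uninjured tissue were 3675 (anterior), 1935 (posterior) and 1714 (treated). What limited the tests was not tested.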

Other observations

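The remaining gene lists, chosen as markers of other cell types and of division, had no call with U0126 against posterior blastemas over all libraries. That fit called 4.13% of all tested genes higher and 3.99% lower, so in lists this small the absence of calls says little. Without both libraries that stood apart TFRC, the transferrin receptor listed with the red blood cell markers, rose, as did 7.1% of all genes. Proliferation genes had a median log2 fold change of 0.17 over 8 tested genes, endothelium markers −0.10 over 11, red blood cell markers −0.29 over 5, skeletal muscle markers −0.92 over 7 and Schwann cell markers −1.24 over 7. Lectin pathway and other activators of complement had a median of −0.68 over 5 and complement receptors −0.31 over 6. MKI67, a marker of dividing cells, averaged 325 ± 38.9 CPM with U0126 and 280 ± 46.9 CPM in posterior blastemas (SD, n = 5 and 4). CFP, the complement factor properdin, was at 195 ± 86.9 CPM with U0126 and 156 ± 17.9 CPM without (0.32, edgeR adjusted p = 0.509), and CD74, the invariant chain of antigen presentation, at 145 ± 57.8 CPM with U0126, 235 ± 132 CPM in posterior, 275 ± 180 CPM in anterior and 551 ± 418 CPM in uninjured tissue, where uninjured tissue had the highest mean and not, as for the C1q genes, the third.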
